A study of Mus musculus with 2 samples.

Results

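The genes described here are those of the retinoic acid receptors, of the proteins that bind and clear retinoic acid, and of 2 meiotic genes that retinoic acid switches on in germ cells. They are Stra8, Rec8, Rara, Rarb, Rarg, Rxra, Rxrb, Crabp1, Crabp2 and Cyp26a1, 10 of the 28839 genes in the deposited table, and each symbol matched 1 row. The list was selected on symbol, with the FPKM (fragments per length of exon, scaled to the library's total) of the same 2 libraries already known, so the values below are descriptions and were not tested. RNA-seq was performed on Sv129, an established mouse embryonic stem cell (mESC) line, in folate-deficient medium (0 mg/L, FA0) and in control medium (4 mg/L, FA4). There was 1 library per condition, from cells of 1 line that were split between both media, and both media held fetal bovine serum and leukemia inhibitory factor. The sources used here do not give the time spent in each medium.

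Retinoic acid is made from vitamin A (retinol), which serum carries. Inside the cell it is bound by CRABP proteins, it activates RAR-RXR heterodimers on DNA, and CYP26 enzymes break it down. RAR-RXR dimers bind retinoic acid response elements, which are direct repeats of a 6-base unit, and Rarb and Cyp26a1 are classical direct targets with such an element close to their start. Stra8 was first found as a gene stimulated by retinoic acid in embryonal carcinoma cells, and in the germline it drives entry into meiosis. In mESCs retinoic acid is best known for driving differentiation, and germline genes such as Stra8 are held down by the PRC1.6 complex and by DNA methylation.

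The promoters of 3 members are shown because they carry, or lack, the letters of a retinoic acid response element. Each runs from 250 bases before to 50 bases after a RefSeq start site on GRCm38.p6, 5′ to 3′ on the strand of the gene. Capitals mark the 2 units of the direct repeat in Rarb and Cyp26a1, and the single units in Stra8, which has no repeat of the searched units. The windows are chr14:16575427-16575726 on the minus strand for Rarb, chr19:37697558-37697857 on the plus strand for Cyp26a1 and chr6:34920698-34920997 on the plus strand for Stra8.
Rarb: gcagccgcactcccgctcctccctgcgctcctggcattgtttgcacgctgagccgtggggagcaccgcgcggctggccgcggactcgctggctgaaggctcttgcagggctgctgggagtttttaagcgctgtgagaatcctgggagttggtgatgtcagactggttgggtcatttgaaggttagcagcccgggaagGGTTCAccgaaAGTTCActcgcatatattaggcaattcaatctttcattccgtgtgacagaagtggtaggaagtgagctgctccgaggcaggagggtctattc
Cyp26a1: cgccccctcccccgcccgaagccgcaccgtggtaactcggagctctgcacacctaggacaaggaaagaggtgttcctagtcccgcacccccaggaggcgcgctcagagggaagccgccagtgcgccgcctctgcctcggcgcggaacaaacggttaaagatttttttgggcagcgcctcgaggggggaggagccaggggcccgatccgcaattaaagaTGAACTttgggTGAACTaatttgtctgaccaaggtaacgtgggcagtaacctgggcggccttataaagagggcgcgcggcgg
Stra8: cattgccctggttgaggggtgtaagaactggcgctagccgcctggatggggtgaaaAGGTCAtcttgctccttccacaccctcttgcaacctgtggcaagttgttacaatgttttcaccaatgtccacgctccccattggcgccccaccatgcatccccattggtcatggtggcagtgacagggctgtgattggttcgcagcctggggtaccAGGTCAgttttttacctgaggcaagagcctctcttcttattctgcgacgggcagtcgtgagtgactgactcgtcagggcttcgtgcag

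The 4 units searched were AGGTCA, the variant AGTTCA, the variant GGGTCA and the variant GGTTCA, as direct repeats with 1, 2 or 5 bases between them. Both strands were read, and matches were allowed to overlap. Of the 15 windows that RefSeq gives for 9 members, 2 held such a repeat, and both had 5 bases between the units. The repeat of Rarb was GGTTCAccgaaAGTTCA, which began 53 bases before the start, and that of Cyp26a1 was TGAACTttgggTGAACT, a match on the opposite strand that began 32 bases before the start. A repeat with 5 bases between was present in 0.0974% of the 32851 promoter windows of all genes, and a repeat with any of the 3 spacings in 0.588%. Rarb and Cyp26a1 were known beforehand to carry such an element, so nothing is read from these shares. The Stra8 window held 2 units but no such repeat, and at least 1 unit was present in 43.7% of all windows. Only exact matches to the 4 units were sought. In Stra8, AGGTCA follows GGGTGA after 2 bases, and GGGTGA was not among the units searched. Crabp2 had no window in the table. A match of letters is a description and not a bound site.

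**Figure D1:**
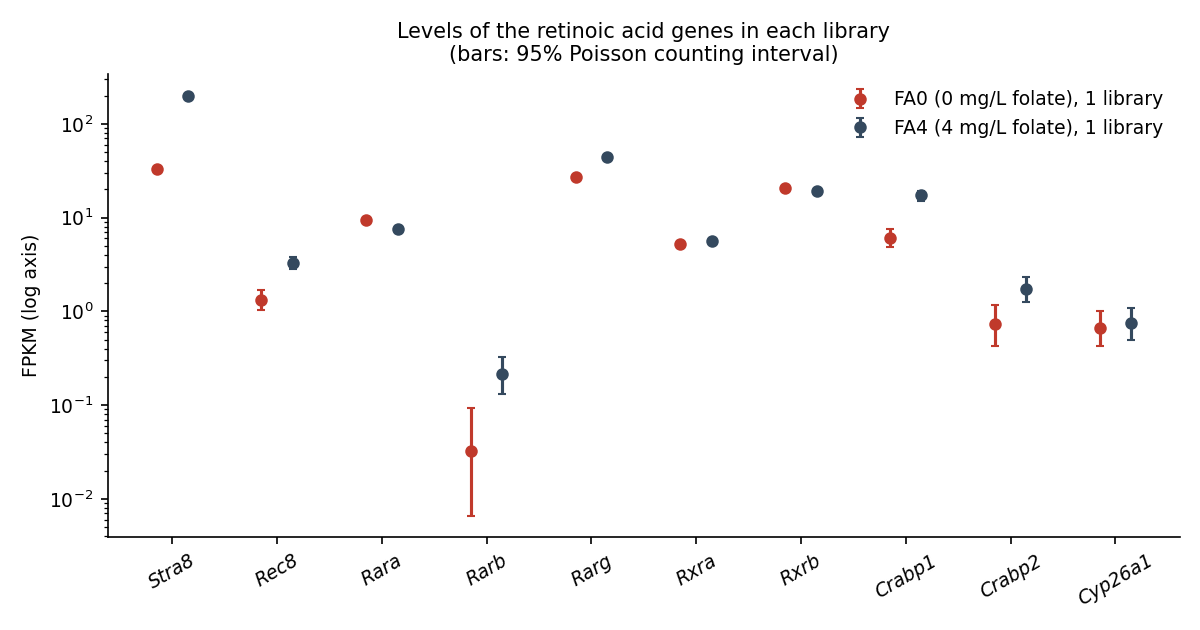
FPKM of the 10 retinoic acid genes (log axis) in FA0 (red) and FA4 (dark blue), 1 library each, with bars for the 95% Poisson counting interval. Stra8 had an FPKM of 32.6 in FA0 and 201 in FA4, while Rarb had the lowest level in both libraries.

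As a measure of depth, FPKM were turned back into reads with the length of each gene, and these summed to 18367562 in FA0 and 19534320 in FA4. The cells carried the markers of mESCs, since each of 10 pluripotency markers stood at 40.2 FPKM or more in both libraries and none was 2-fold apart, with a summed FPKM of 2269 in FA0 and 2912 in FA4. Of 7 fibroblast feeder markers, Thy1 had an FPKM of 4.53 in FA0 and 4.21 in FA4, and Pdgfrb 1.86 in FA0 and 2.02 in FA4. Col3a1, Lum and Postn were listed at 0 in FA4 and had 1, 1 and 9 reads in FA0. The summed FPKM of the 7 was 6.80 in FA0 and 6.48 in FA4, most of it from Thy1 and Pdgfrb. Markers of 2-cell-like cells, which arise at low frequency in mESC cultures, differed between the conditions. Their summed FPKM over 9 genes was 4.05 in FA0 and 33.0 in FA4, and Tcstv1 was listed at 0 in FA0. Each stood at 0.845 FPKM or less in FA0, so the 7 past the minimum of 1 FPKM passed in FA4 only. A lower level in FA0 was thus built into the choice of these 7. Of them, 6 lay past the 2-fold limit on the lower side, a count that depends on the filter. Among all 14345 genes past the minimum, 1.32% did. The part of 2-cell-like cells in the values below was not tested. In bulk RNA, fewer cells that express a gene and less RNA per cell cannot be told apart.

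Stra8 (ENSMUSG00000029848, mm10 chromosome 6, bases 34920163 to 34939344) was measured at 32.6 FPKM in FA0 and 201 in FA4, from 1042 reads in FA0 and 6801 in FA4. It was 6.14-fold lower in FA0 (95% counting interval 5.76 to 6.56). These intervals are Clopper-Pearson intervals of the ratio of reads and cover counting error only, since with 1 library per condition the spread between cultures is unknown. Stra8 was the most abundant of the 10 genes in both libraries. It ranked 209 among all genes by FPKM in FA4 and 1865 in FA0, above 98.5% of the expressed genes in FA4 and above 87.0% in FA0. Expressed genes are the 14345 that reached 1 FPKM in FA0 or FA4. Changes are given on the log2 scale after 1 was added to each FPKM, FA0 over FA4, which understates the difference for low genes, and Stra8 had a change of -2.58. Among 5950 genes that reached 10 FPKM in FA0 or FA4, 3 had a change at or below that of Stra8, Stra8 included. Among 537 genes that reached 100 FPKM in FA0 or FA4, Stra8 was the only one with a change that low. Stra8 passed this higher cut in FA4 only, so its place among the 537 depends on the cut.

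Rec8 (chromosome 14, bases 55618037 to 55625395), which encodes the meiotic kleisin subunit of cohesin and is also induced by retinoic acid in germ cells, stood at a much lower level. It had an FPKM of 1.33 in FA0 and 3.26 in FA4, from 69 reads in FA0 and 180 in FA4, and was 2.46-fold lower (95% counting interval 1.85 to 3.29). Its change with the pseudocount was -0.87. Both Stra8 and Rec8 were therefore lower in FA0, and Stra8 stood far above Rec8 in each library.

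**Figure D2:**
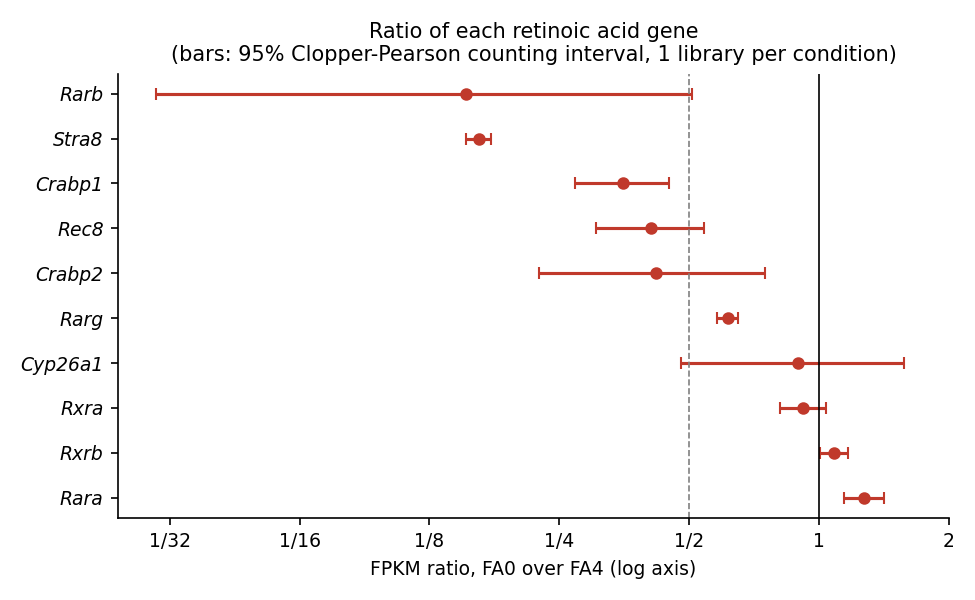
FPKM ratio of FA0 over FA4 for each gene (log axis), with the 95% Clopper-Pearson counting interval. The solid line marks equal levels and the dashed line a 2-fold lower level. Rarb, Stra8, Crabp1, Rec8, Crabp2 and Rarg lie left of equal levels with their whole intervals, and the intervals of Cyp26a1 and Rxra span it.

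The 3 RAR genes encode the receptors that bind retinoic acid, and they did not share a direction. Rarg (chromosome 15, bases 102234938 to 102257517), the most abundant of them, had an FPKM of 27.1 in FA0 and 44.1 in FA4 and was 1.63-fold lower (95% counting interval 1.54 to 1.72). Rara (chromosome 11, bases 98927818 to 98974942) had an FPKM of 9.55 in FA0 and 7.50 in FA4, a ratio of 1.27 (95% counting interval 1.14 to 1.42). Rarb (chromosome 14, bases 16430839 to 16819156), the receptor gene with the response element in the window printed above, rested on 3 reads in FA0 and 21 in FA4. Its FPKM was 0.0322 in FA0 and 0.212 in FA4, which gave a ratio of 0.152 (95% counting interval 0.0290 to 0.508). Rarb shares 1793 exon bases with Top2b and 227 with Gm48162, both on the opposite strand, and the sources used here do not say whether strand was used in counting, so its reads are uncertain. Top2b had an FPKM of 3.29 in FA0 and 3.76 in FA4.

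The RAR transcripts summed to an FPKM of 36.7 in FA0 and 51.8 in FA4. Rarg made up 73.9% of this sum in FA0 and 85.1% in FA4, and Rara 26.0% in FA0 and 14.5% in FA4. Counted in reads, the share of Rarg was 73.4% of 2787 reads in FA0 (95% Clopper-Pearson interval 71.7 to 75.0) and 84.7% of 4173 reads in FA4 (95% interval 83.6 to 85.8), so the intervals of both libraries did not overlap. The level of Rarg over that of Rara was 2.84 in FA0 and 5.88 in FA4.

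RXR proteins are the shared partners of RAR and of several other nuclear receptors. Rxrb (chromosome 17, bases 34031812 to 34038393) had an FPKM of 20.7 in FA0 and 19.1 in FA4, a ratio of 1.08 (95% counting interval 1.01 to 1.17). Rxra (chromosome 2, bases 27676440 to 27762957) had an FPKM of 5.18 in FA0 and 5.64 in FA4, and its ratio of 0.919 had a counting interval that holds equal levels (0.814 to 1.04). The third RXR gene, Rxrg, is not one of the 10 genes and had 1 read in FA0 and 9 in FA4. The RXR transcripts summed to an FPKM of 25.9 in FA0 and 24.9 in FA4, and the sum over RAR genes was 1.42 times that over RXR genes in FA0 and 2.08 times in FA4.

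**Figure D3:**
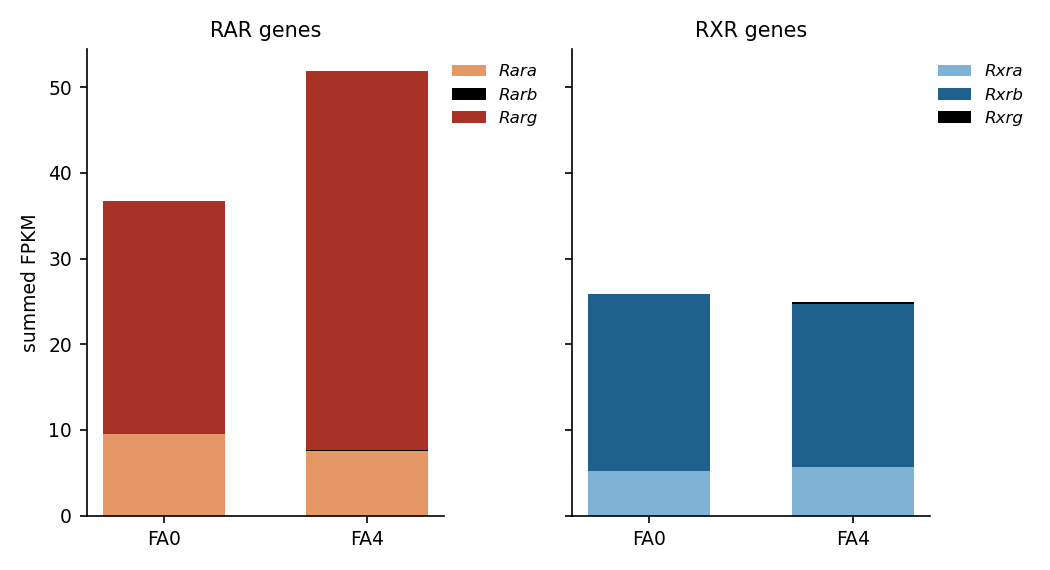
Summed FPKM of the RAR genes (left) and the RXR genes (right) in FA0 and FA4, 1 library each, stacked by gene. The RAR sum was 36.7 in FA0 and 51.8 in FA4, with the difference in Rarg, and the RXR sum was 25.9 in FA0 and 24.9 in FA4. Rarb and Rxrg, in black, are barely visible.

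Both cellular retinoic acid-binding protein genes were lower in FA0. Crabp1 (chromosome 9, bases 54764748 to 54773110) had an FPKM of 6.06 in FA0 and 17.2 in FA4, from 86 reads in FA0 and 260 in FA4, and was 2.85-fold lower (95% counting interval 2.22 to 3.68). Crabp2 (chromosome 3, bases 87948666 to 87953376), whose protein hands retinoic acid to RAR, had an FPKM of 0.726 in FA0 and 1.73 in FA4. It was 2.38-fold lower, with a wide counting interval (1.33 to 4.45) from 17 reads in FA0 and 43 in FA4. Crabp1 stood above Crabp2 by a similar factor in both libraries, 8.34 in FA0 and 9.97 in FA4.

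Cyp26a1 (chromosome 19, bases 37697808 to 37701528), which encodes the main enzyme that clears retinoic acid in the early embryo, was low in both libraries. Its FPKM was 0.669 in FA0 and 0.750 in FA4, and the counting interval of the ratio, 0.480 to 1.57 around 0.892, was wide, so a difference in either direction was not detectable at this depth. For Cyp26a1 and Rxrb the recovered reads were not whole (up to 0.49 and 0.33 of a read off), so their intervals are approximate. Of the members whose promoter window held a repeat of the searched units, Rarb had the lower value in FA0. It rested on 3 reads in FA0 and 21 in FA4, which are uncertain because of its overlap with Top2b. Cyp26a1 had an interval that spans equal levels. The intervals of both ratios overlapped.

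By level, the order in FA0 was Stra8, Rarg, Rxrb, Rara, Crabp1, Rxra, Rec8, Crabp2, Cyp26a1 and Rarb, and the order in FA4 differed in that Crabp1 stood above Rara. By the Poisson intervals of single genes, the neighbours Crabp1 and Rxra, Rec8 and Crabp2, and Crabp2 and Cyp26a1 overlapped in FA0. In FA4 the neighbours that overlapped were Rxrb and Crabp1.

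In all, 8 of the 10 genes passed the minimum FPKM of 1 in either library, and Rarb and Cyp26a1 did not. Crabp2 passed in FA4 only, so its place in the counts and the median below depends on the filter. Taking a change of 1 or more, in either direction, as the 2-fold limit, 2 of the 8 were lower in FA0, Stra8 and Crabp1, while 1.32% of all expressed genes were. None was at least 2-fold higher, against 2.99% of all. No p-value exists for these counts, because 1 library per condition allows none. By the FPKM ratio without a pseudocount, 4 of the 8 were at least 2-fold lower, Rec8 and Crabp2 being the others, against 3.11% of all, and 0 were at least 2-fold higher, against 7.31% of all. The member next inside the limit was Crabp1 with a change of -1.37, and the next outside was Rec8 with -0.87. The counting interval of the ratio lay below equal levels for 5 of the 8 and above for 2, against 25.8% and 34.4% of all expressed genes. The median change of the 8 genes was -0.67 and that of all expressed genes 0.05. Since the list was chosen with these values known, nothing is read from these counts.

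**Figure D4:**
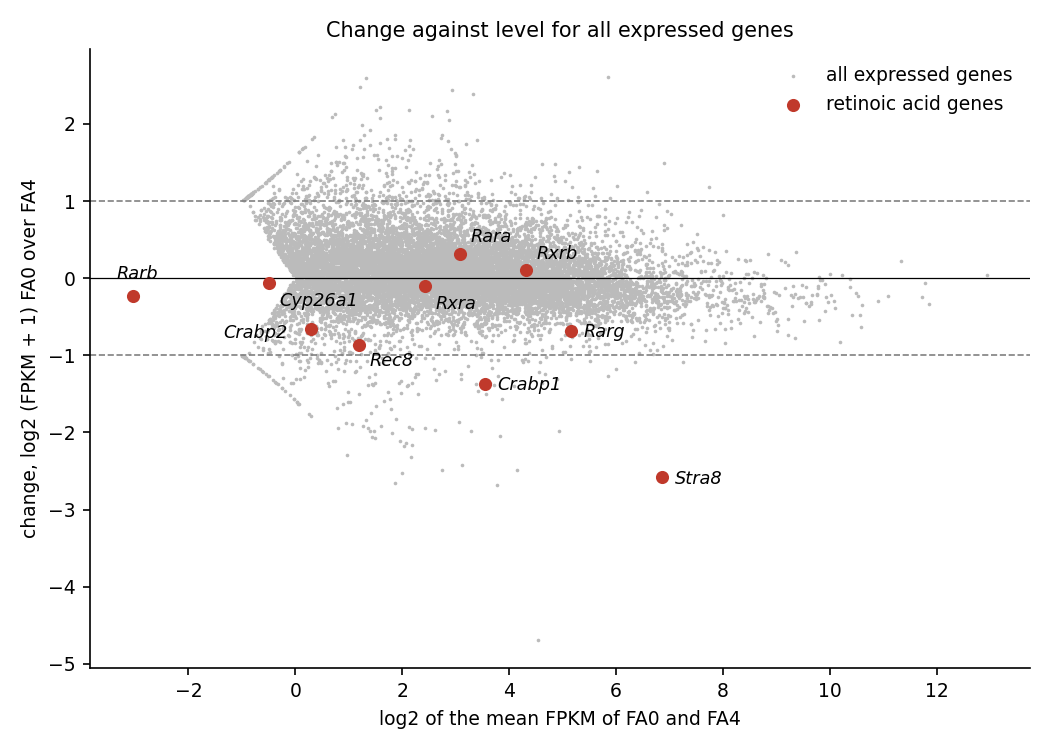
Change (log2 scale, FA0 over FA4, 1 added to each FPKM) against log2 of the mean FPKM for the 14345 expressed genes (grey) and the 10 retinoic acid genes (red, of which Rarb and Cyp26a1 are under the minimum). Dashed lines mark a change of 1 in size. Stra8, at a change of -2.58, lies apart from genes of its level.

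Genes with a change nearest to that of Stra8 were sought among 5407 genes that reached 10 FPKM in FA0 or FA4, leaving out predicted and clone-based symbols. Likeness was the distance in the change over these 2 libraries, which is all that 2 values allow. The 4 nearest were Meioc, Cidea, Ndufa4l2 and H19, at distances of 0.60, 0.72, 1.02 and 1.18. Meioc, a factor of meiotic prophase, had an FPKM of 3.38 in FA0 and 16.3 in FA4. H19, an imprinted non-coding RNA, had an FPKM of 8.89 in FA0 and 25.1 in FA4.

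The other genes of the pathway were taken from 6 lists that the members are not part of, written with earlier results of these data known. They hold 114 genes, of which 107 were in the table and 67 passed the minimum. Of the 67, 3 were at least 2-fold lower and 2 at least 2-fold higher by the change, 4.48% and 2.99%, against 1.32% and 2.99% of all expressed genes. Foxa1 and Gata6 of the lower genes passed the minimum in FA4 only, and Adh1 of the higher genes in FA0 only. Their places in these counts depend on the filter. The median change of the 67 was 0.10, against 0.05 for all.

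Of the genes that take up, carry and store retinoids, 6 of 11 passed the minimum, none was 2-fold apart, and the median change was -0.27. Rbp4, the retinol carrier of blood, had an FPKM of 1.87 in FA0 and 3.24 in FA4. Fabp5, which can also carry retinoic acid, had an FPKM of 2.85 in FA0 and 3.91 in FA4, while Rbp7, a cellular retinol-binding protein gene, had 3.23 in FA0 and 1.78 in FA4. Stra6 and Lrat were under the minimum, were picked after their values were seen, and lay on opposite sides. Stra6, the membrane receptor for the retinol carrier, had 8 reads in FA0 and 55 in FA4 and was 6.47-fold lower (95% counting interval 3.07 to 15.7). Lrat, which esterifies retinol for storage, had 24 reads in FA0 and 5 in FA4, a ratio of 5.10 (95% counting interval 1.91 to 17.1).

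Retinol is oxidised to retinal and then to retinoic acid. Of the genes of this synthesis, 12 of 20 passed the minimum, with a median change of 0.09. By the change, 1 was at least 2-fold higher and none at least 2-fold lower, against 2.99% and 1.32% of all expressed genes. Adh1, an alcohol dehydrogenase gene, had an FPKM of 3.39 in FA0 and 0.476 in FA4 and was 7.12-fold higher (95% counting interval 4.43 to 12.0). Aldh1a2, the retinal dehydrogenase of the early embryo, went the other way, with an FPKM of 0.748 in FA0 and 1.76 in FA4. Its level was 2.35-fold lower (95% counting interval 1.52 to 3.72), although its change was -0.66. Adh1 passed the minimum in FA0 only and Aldh1a2 in FA4 only, so their places in this list's counts depend on the filter. Rdh11, a retinal reductase gene, had an FPKM of 9.91 in FA0 and 6.66 in FA4, and Dhrs4 had 5.96 in FA0 and 4.94 in FA4. The other clearance genes, Cyp26b1 and Cyp26c1, were under the minimum with 10 and 14 reads in FA0 and 18 and 9 reads in FA4.

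Among nuclear receptors that pair with RXR or act beside RAR, 13 of 21 passed the minimum, none was 2-fold apart by the change, and the median change was 0.28. Thra, a thyroid hormone receptor gene, was closest to the limit with a change of 0.99, an FPKM of 4.57 in FA0 and 1.81 in FA4, and a ratio of 2.52 (95% counting interval 2.09 to 3.06). Ppard had an FPKM of 10.8 in FA0 and 6.44 in FA4. Nr6a1, an orphan receptor that silences Pou5f1 during differentiation, had 5.29 in FA0 and 8.36 in FA4. All 20 corepressor and coactivator genes passed the minimum, none was 2-fold apart, and their median change was 0.12. Ncoa1, a coactivator gene, had an FPKM of 10.6 in FA0 and 7.11 in FA4, a change of 0.52.

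**Figure D5:**
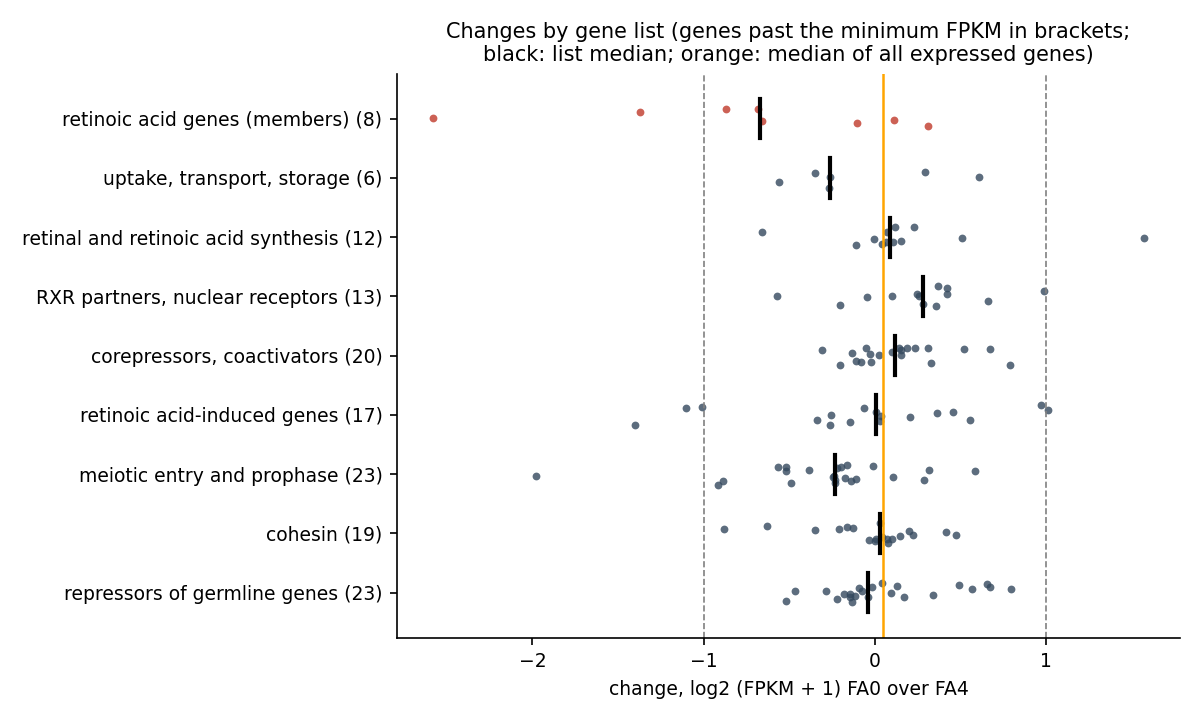
Change of each gene past the minimum FPKM, by list, with the retinoic acid genes in red. Black bars are list medians, the orange line is the median of all expressed genes (0.05), and dashed lines mark a change of 1 in size. The members' median is -0.67, and the medians of the other lists lie between -0.27 and 0.28.

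Genes that retinoic acid induces in embryonic stem or embryonal carcinoma cells had values in both directions. Of 39 in the table, 17 passed the minimum, with a median change of 0.01. By the change, 3 were at least 2-fold lower and 1 at least 2-fold higher, against 1.32% and 2.99% of all expressed genes. Foxa1 and Gata6, 2 of the lower genes, passed the minimum in FA4 only, so their place in this count depends on the filter. Foxa1, an endoderm factor, was 4.48-fold lower (95% counting interval 2.98 to 6.94), with 29 reads in FA0 and 138 in FA4. Gata6, which specifies primitive endoderm, was 3.32-fold lower (95% counting interval 2.61 to 4.23). The gene on the other side was Col4a1, a basement membrane collagen gene, with an FPKM of 46.0 in FA0 and 22.3 in FA4. Tgm2, a transglutaminase gene, had a change of 0.97, Rai1 one of 0.55 and Lefty1 one of 0.45.

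Gata6 is also 1 of 6 primitive endoderm markers, whose summed FPKM was 3.61 in FA0 and 6.40 in FA4, with none at 0. Gata6 itself, with an FPKM of 0.778 in FA0 and 2.58 in FA4, made up most of that difference. It was the 1 of the 3 past the minimum that was at least 2-fold lower, and it passed in FA4 only. Foxa2 of the same markers lay on the other side, with 17 reads in FA0 and 9 in FA4 and a counting interval of the ratio that holds equal levels (0.846 to 5.11). The part of such cells in the value of Foxa1 was not tested.

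Stra8 acts in germ cells together with MEIOSIN and upstream of the genes of meiotic prophase, and Stra8 and Rec8 belong to both groups. Of 27 such genes outside the members, 23 passed the minimum, with a median change of -0.23. By the change, 1 lay past the limit on the lower side and 0 on the higher, against 1.32% and 2.99% of all expressed genes. Meioc was the gene past the limit, 4.82-fold lower (95% counting interval 4.24 to 5.51). Tex11 and Syce1, of meiotic recombination and synapsis, had changes of -0.91 and -0.88, and Msh5 one of 0.58. Gm4969, the MEIOSIN gene, was picked after its values were seen and had an FPKM of 0.638 in FA0 and 0.476 in FA4, a ratio of 1.34 (95% counting interval 0.877 to 2.06). The germ cell markers, 6 of 6 past the minimum, had a summed FPKM of 64.4 in FA0 and 71.2 in FA4, and none was 2-fold apart.

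Rec8 works in a cohesin ring with SMC1B, SMC3 and STAG3. Of 20 other cohesin genes, 19 passed the minimum, none was 2-fold apart, and the median change was 0.03. Stag3 had an FPKM of 19.2 in FA0 and 36.3 in FA4 and was 1.89-fold lower (95% counting interval 1.79 to 2.00). Smc1b, picked after its values were seen, had an FPKM of 16.2 in FA0 and 13.8 in FA4. Pttg1, the separase inhibitor gene, had a change of -0.63 and Esco2, an acetyltransferase gene of cohesion, one of 0.47.

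The repressors that hold germline genes down in mESCs were compared as well, since Stra8 is among the genes they are known to repress. Stra8 was not silent here, at 32.6 FPKM in FA0 and 201 in FA4. The part of these repressors in the value of Stra8 was not tested. All 23 passed the minimum, none was 2-fold apart, 13 had a change below 0, and the median change was -0.04. The 3 with the largest change in size were higher in FA0. Uhrf1, which guides DNA methylation to replicated DNA, had an FPKM of 137 in FA0 and 78.6 in FA4, a ratio of 1.74 (95% counting interval 1.69 to 1.80). Dnmt3b, a DNA methyltransferase gene, had a ratio of 1.63 (95% counting interval 1.53 to 1.74) and Ehmt2, an H3K9 methyltransferase gene, one of 1.61 (95% counting interval 1.51 to 1.72). For Dnmt3b the paper reports the opposite direction by RT-qPCR, with less mRNA in folate-deficient mESCs. Ring1 and Yaf2, whose proteins are subunits of PRC1.6, were picked after their values were seen and lay on the other side, with ratios of 0.642 (95% counting interval 0.537 to 0.766) and 0.700 (95% counting interval 0.598 to 0.817). Other PRC1.6 subunit genes, also picked after their values were seen, lay on both sides. L3mbtl2 had a ratio of 1.42 (95% counting interval 1.35 to 1.49) and Pcgf6 one of 0.815 (95% counting interval 0.777 to 0.854).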

How the data were processed

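Per the labels, total RNA of Sv129 mESCs was extracted with TRIzol and libraries were built with the NEBNext Ultra kit, 1 per condition. The deposited values are FPKM, which the authors calculated for each Ensembl gene after alignment to mm10 and scaled within each library. Tools listed in the submitters' processing notes are StringTie 1.3.3b, HISAT2 2.1.0 and DESeq 1.28.0. For strand and multi-mapped reads, the settings are not given in the sources used here.

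To recover reads, the value of 1 read was estimated by least squares from FPKM times the merged exon length in GENCODE M21 (same build), on values up to 20 reads. Of these values, 98.1% in FA0 and 97.9% in FA4 fell within 0.05 of a whole read, with scaling totals of 17704596 reads in FA0 and 18807010 in FA4. Lengths were missing for 39 genes. No test was run, as 1 library per condition leaves no error to test against, and intervals at 95% cover counting error only. The scripts were tested on simulated data.

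The members and the gene lists were chosen with earlier results of these data known. Named genes were the 10 members, every list gene at least 2-fold apart with up to 3 more of the largest change per list, and the 4 genes nearest to Stra8 in change. Some genes that this rule names are not reported here. Promoter sequences are from RefSeq (GRCm38.p6), with windows for 9 of the 10 members. The alternatives were pseudocounts of 0.1 and 0.5, a minimum FPKM of 5 or none, TPM, FA0 multiplied so that the median ratio over 7744 genes was 1, shares in reads, and the unit AGGTCA alone. The FPKM ratio without a pseudocount was chosen after seeing the data. Python 3.11.15 with pandas 2.3.3, numpy 2.4.6, scipy 1.17.1 and matplotlib 3.10.9 was used.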

Additional observations from a re-analysis of the deposited data

How the results depend on the processing

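A pseudocount or a minimum cannot turn the direction of a gene's change, so only the rescaling of FA0 and TPM bear on it, and the 8 members past the minimum after rescaling and the 9 with TPM kept theirs. The number of members at least 2-fold lower was 4 with a pseudocount of 0.1 and 4 by the FPKM ratio, against 2 as reported, and their median change was -0.92 with a pseudocount of 0.1, -0.98 by the ratio and -0.39 with a minimum FPKM of 5. Of the other pathway genes, 1 was at least 2-fold lower and 1 at least 2-fold higher with a minimum FPKM of 5, while 4 were at least 2-fold higher with a pseudocount of 0.1 or 0.5, with TPM and by the ratio. Over all 14345 expressed genes, 190 were lower and 429 higher as reported (1.32% and 2.99%). A pseudocount of 0.1 gave 409 and 951 (2.85% and 6.63%), and one of 0.5 gave 279 and 659 (1.94% and 4.59%). The ratio gave 446 and 1049 (3.11% and 7.31%). With a minimum FPKM of 5, 80 of 8731 genes were lower and 195 higher (0.916% and 2.23%). With TPM, 599 of 18809 were lower and 1529 higher (3.18% and 8.13%). TPM moved the median change of all genes to 0.15, against 0.05. Without scaling for length, Rxrb was 74.4% of the RXR reads in FA0 and 70.8% in FA4, against 79.9% and 76.6% of the FPKM. With the unit AGGTCA alone, 0 members had a direct repeat. No paired analysis was possible because there was 1 library per condition, and no replicate could be left out. Depth limits Rarb, Crabp2, Cyp26a1, Stra6 and Lrat, which rest on few reads.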
